A study of Homo sapiens with 28 samples.

Results

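The genes described here are 6 copies of mitochondrial genes that lie side by side in the nuclear genome, on chromosome 1: MTND1P23 (ENSG00000225972), MTND2P28 (ENSG00000225630), MTCO1P12 (ENSG00000237973), MTCO2P12 (ENSG00000229344), MTATP6P1 (ENSG00000248527) and MTCO3P12 (ENSG00000198744). They were picked by name out of the 24678 genes that received at least 1 exonic HISAT-3N read in the deposited count table, and all 6 were present. The choice followed from an earlier look at the same libraries, in which several of these copies stood higher with 4-thiouridine (s4U) than without. The difference between labelled and unlabelled libraries is therefore given below as a description, with no test.

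All libraries came from wild-type HEK 293T cells, an established human embryonic kidney line. Cells were given 100 µM s4U, a uridine analogue that is built into new RNA, for 2 h, or no s4U. The isolated RNA was then treated with one of 3 chemistries that make s4U read as C (NaIO4 + TFEA at pH 5.2, iodoacetamide, or OsO4 + NH3), and any read that carries 1 or more T-to-C mismatches is here called a converted read. RNA was collected by a common protocol, drop-out handling (DO), or by improved handling (IH), which was meant to limit the loss of labelled RNA. Every pairing of chemistry and handling had 2 libraries with s4U and 1 without, or 18 in all, 12 of them labelled. The labels do not say whether the 2 labelled libraries of a group came from separate cultures, so p-values measure only the spread between these libraries, which may be technical.

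Pieces of mitochondrial DNA have entered the nuclear genome many times during evolution, and such nuclear copies are annotated as pseudogenes named after the gene they resemble. The mitochondrial parents encode subunits of the respiratory chain: ND1 and ND2 belong to complex I (NADH dehydrogenase), CO1, CO2 and CO3 form the catalytic core of complex IV (cytochrome c oxidase), and ATP6 is a membrane subunit of ATP synthase. A read from a stretch that a nuclear copy shares with its abundant parent can be placed on either, so the division of reads between them depends on the aligner and is uncertain for every value below. How the authors counted reads that fit both places is not given in the sources used here.

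In the RefSeq annotation of GRCh38.p14, the 6 copies span 5861 bases at chr1:629062-634922, and they follow each other in the same order as their parents on the mitochondrial genome. MTND1P23 (chr1:629062-629440) covers 39.6% of the length of MT-ND1. MTND2P28 (chr1:629640-630686), MTCO1P12 (chr1:631074-632616), MTCO2P12 (chr1:632757-633438) and MTATP6P1 (chr1:633696-634376) cover 99.7% to 100.5% of the length of their parents. MTCO3P12 (chr1:634376-634922) covers 69.8% of MT-CO3. All 6 are annotated as pseudogenes.

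HISAT-3N, an aligner built for converted bases, gave libraries of 1935777 to 9962345 aligned reads. Between 32.7% and 41.5% of the reads of a DO library were assigned to no gene, and 17.5% to 25.7% of those of an IH library. The converted share of all reads was 16.7% to 25.0% in labelled DO libraries, 40.0% to 58.2% in labelled IH libraries and 2.41% to 5.17% in unlabelled ones. The cell line could not be checked against its marker genes, because the identifiers of the table could not be paired with their symbols. The remaining 10 samples of the series, which used different chemistries, were not analysed here.

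The copies differed widely in read number, and the parents were far above each of them. Per kilobase of gene, with HISAT-3N, the mean level in labelled libraries was 720 CPM (exonic counts per 1e6 counts, TMM-scaled) for MTATP6P1 and 333 for MTCO2P12. It was 175 for MTCO1P12, 139 for MTND2P28, 5.81 for MTND1P23 and 4.68 for MTCO3P12. The order of the copies was not the same with the other aligners, described further on. On the same scale the parents stood between 1531 (MT-ND2) and 4535 (MT-CO2). The 2 short copies received 0 to 5 exonic reads (MTND1P23) and 0 to 11 exonic reads (MTCO3P12) in a library, so their values carry large counting error.

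Levels here and up to the comparison of alignments further on are from HISAT-3N. The gaps between labelled and unlabelled libraries depended on the aligner: with STAR D and HISAT2 D that of MTND2P28 was close to 0 or small, and those of MTCO1P12 and MTATP6P1 turned below 0 under DO. Among the complex I copies, in exonic HISAT-3N reads, MTND2P28 showed the widest gap between labelled and unlabelled libraries. Under DO its level was 14.9, 20.1 and 28.2 CPM in the 3 unlabelled libraries and 119 to 229 CPM in the 6 labelled ones (median 177). Under IH it was 10.6, 13.8 and 15.6 CPM without s4U and 68.6 to 151 CPM with it (median 114). The labelled libraries were all above the unlabelled ones, with a ratio of 6.74 to 10.7 within each combination of chemistry and handling. The fitted log2 difference was 3.10 under either handling. It was 0.42 (DO) and 0.26 (IH) with STAR D, and 0.08 and 0.09 with HISAT2 D. Its parent MT-ND2 had labelled-to-unlabelled ratios of 0.76 to 1.20 in the same 6 combinations. MTND1P23 had 33 exonic reads over the 12 labelled libraries and 10 over the 6 unlabelled ones. Another 146 labelled and 4 unlabelled reads of MTND1P23 were marked intronic and are not part of these levels.

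Of the complex IV copies, with HISAT-3N, MTCO2P12 had wider gaps between labelled and unlabelled libraries than MTCO1P12. MTCO2P12 stood at 67.8, 95.9 and 104 CPM in unlabelled DO libraries and 234 to 369 CPM in labelled ones (median 303). Under IH it stood at 37.0, 38.1 and 40.8 CPM without s4U and 106 to 188 CPM with it (median 139). The ratios were 3.12 to 4.41. MTCO1P12 stood at 189, 189 and 213 CPM in unlabelled and 269 to 404 CPM in labelled DO libraries, and at 65.2, 98.8 and 106 CPM against 178 to 234 CPM under IH. Its ratios were 1.55 to 3.38. With STAR D the fitted log2 difference of MTCO1P12 was -0.33 (DO) and 0.35 (IH), and with HISAT2 D -0.09 and 0.43, against 0.73 and 1.27 with HISAT-3N. MTCO2P12, with 48 labelled and 23 unlabelled reads with STAR D, did not pass the filter on low counts. MTCO3P12 had 45 labelled and 24 unlabelled exonic reads, and its ratio ran from 0.33 to 4.01.

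The ATP synthase copy, MTATP6P1, was the most abundant of the 6 in labelled libraries. Without s4U it stood above MTCO1P12 in some libraries and below it in others. The level of MTATP6P1 was 183, 241 and 253 CPM in unlabelled DO libraries and 459 to 805 CPM in labelled ones (median 631). Under IH it was 60.7, 99.1 and 99.4 CPM without s4U and 256 to 380 CPM with it (median 344). The ratios were 2.54 to 5.46, against 0.87 to 1.36 for MT-ATP6. The fitted log2 difference of MTATP6P1 was 1.53 (DO) and 1.99 (IH) with HISAT-3N, -0.19 and 0.34 with STAR D, and -0.18 and 0.36 with HISAT2 D. Both labelled libraries were above the unlabelled one in 6 of 6 combinations for MTND2P28, MTCO1P12, MTCO2P12 and MTATP6P1, and in 3 of 6 for MTND1P23 and MTCO3P12. Of all genes tested, 0.932% met the same condition, and edgeR's quasi-likelihood test called 0.217% (DO) and 0.225% (IH) of genes different with s4U. The members were chosen on this contrast, so nothing is read from these counts.

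**Figure D1:**
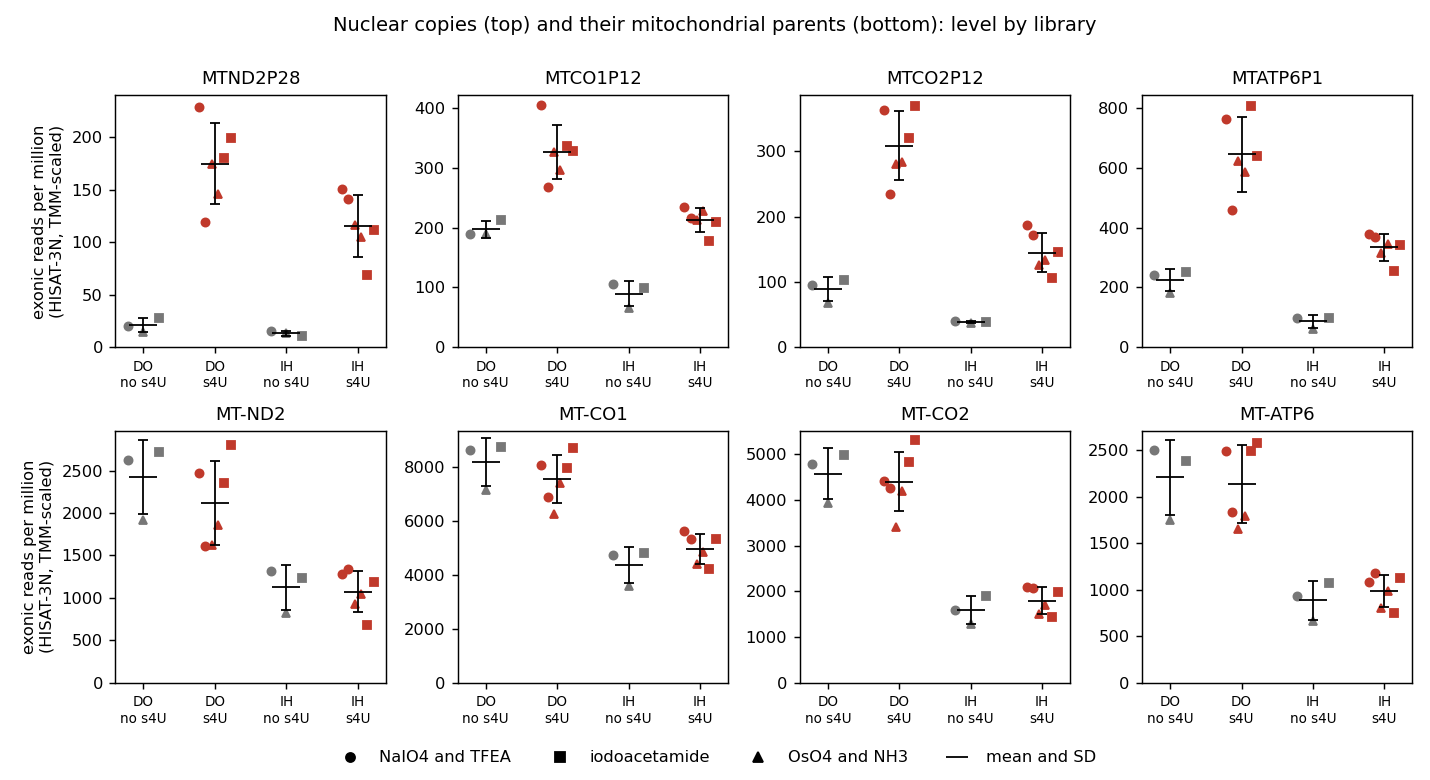
Exonic CPM from HISAT-3N (linear axis from 0) in each of the 18 libraries, for 4 nuclear copies (top) and their parents (bottom), by handling and label; symbols mark the chemistry and bars the mean and SD. With this aligner the labelled libraries of the 4 copies lie above the unlabelled ones under both handlings, as with MTND2P28 at 119 to 229 CPM against 14.9 to 28.2 under DO, while the labelled and unlabelled libraries of the parents overlap.

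With HISAT-3N, the difference between labelled and unlabelled libraries lay in converted reads for MTND2P28, MTCO2P12 and MTATP6P1. MTND2P28 had 155 ± 38.3 converted CPM (SD, n = 6) in labelled DO libraries and 3.03 ± 3.44 (SD, n = 3) in unlabelled ones, while its reads without a mismatch stood at 19.6 ± 5.60 and 18.04 ± 3.26 CPM. Under IH its unconverted level was 12.3 ± 3.65 CPM (SD, n = 6) with s4U and 12.1 ± 1.95 (SD, n = 3) without. MTCO2P12 showed the same split, with unconverted levels of 66.4 ± 26.2 and 75.7 ± 14.5 CPM under DO and 29.3 ± 7.82 and 32.1 ± 3.87 under IH. MTATP6P1 without a mismatch stood at 142 ± 40.0 and 142 ± 37.9 CPM under DO. For MTCO1P12, unconverted reads were fewer with s4U under DO (124 ± 17.2 against 168 ± 15.7 CPM) and level under IH (73.8 ± 14.4 against 75.1 ± 16.9).

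With HISAT-3N, the pooled converted share of MTND2P28, MTCO1P12, MTCO2P12 and MTATP6P1 was above that of their parents in both labelled and unlabelled libraries. In the 12 labelled libraries, 83.0% to 93.8% of MTND2P28 reads were converted (median 87.8%), against 45.1% to 70.5% of MT-ND2 reads. Over the pooled labelled reads its 89.8% was the highest of the 4084 genes with at least 20 exonic reads in every labelled library. MTATP6P1 followed at 79.8% (rank 4) and MTCO2P12 at 78.4% (rank 6), and MTCO1P12 had 64.0% (rank 59). MT-ATP6, MT-CO2 and MT-CO1 had 28.3%, 30.8% and 30.1%, and the median gene had 12.1% under DO and 25.1% under IH. With STAR D the pooled labelled shares were 53.5% for MTND2P28 and 54.2% for MT-ND2, and 24.2% for MTATP6P1 and 24.1% for MT-ATP6. With HISAT2 D they were 50.2% and 50.7%, and 22.0% and 22.3%. MTCO1P12 had 27.4% with STAR D against 24.0% for MT-CO1, and MTCO2P12 had 64.6% of only 48 reads against 27.5% for MT-CO2. The ranks above therefore hold for HISAT-3N only, and they pool DO and IH libraries. The copies were chosen because several stood higher with s4U. A high converted share in labelled libraries is not independent of that choice, so nothing is read from the ranks.

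The unlabelled libraries show the background of this share. Without s4U, 24.4% to 54.7% of MTATP6P1 reads carried a T-to-C mismatch (median 36.2%, 6 libraries), and 3.45% to 6.26% of MT-ATP6 reads. The shares were 12% to 26.2% for MTCO2P12, 12.2% to 18.8% for MTCO1P12 and 0% to 24.0% for MTND2P28, where single libraries held as few as 11 reads. In 2 of the 6 unlabelled libraries MTND2P28 was below its parent, with 0 of 11 reads against 3.53% (OsO4 + NH3, DO) and 1 of 17 against 7.36% (iodoacetamide, IH). Pooled, MTND2P28 had 11.5% of 192 reads (95% Wilson interval 7.69% to 16.7%) and its parent 4.47% of 17975. No converted read was seen for MTND1P23 among 10 unlabelled exonic reads (95% Wilson upper limit 27.8%), or for MTCO3P12 among 24 (13.8%). Their pooled labelled shares were 54.5% of 33 reads (38.0% to 70.2%) and 40.0% of 45 (27.0% to 54.5%). With STAR D the pooled unlabelled share was 4.18% for MTATP6P1 and 3.87% for MT-ATP6, and 5.70% for MTND2P28 and 4.10% for MT-ND2. Intervals and limits cover counting error only.

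**Figure D2:**
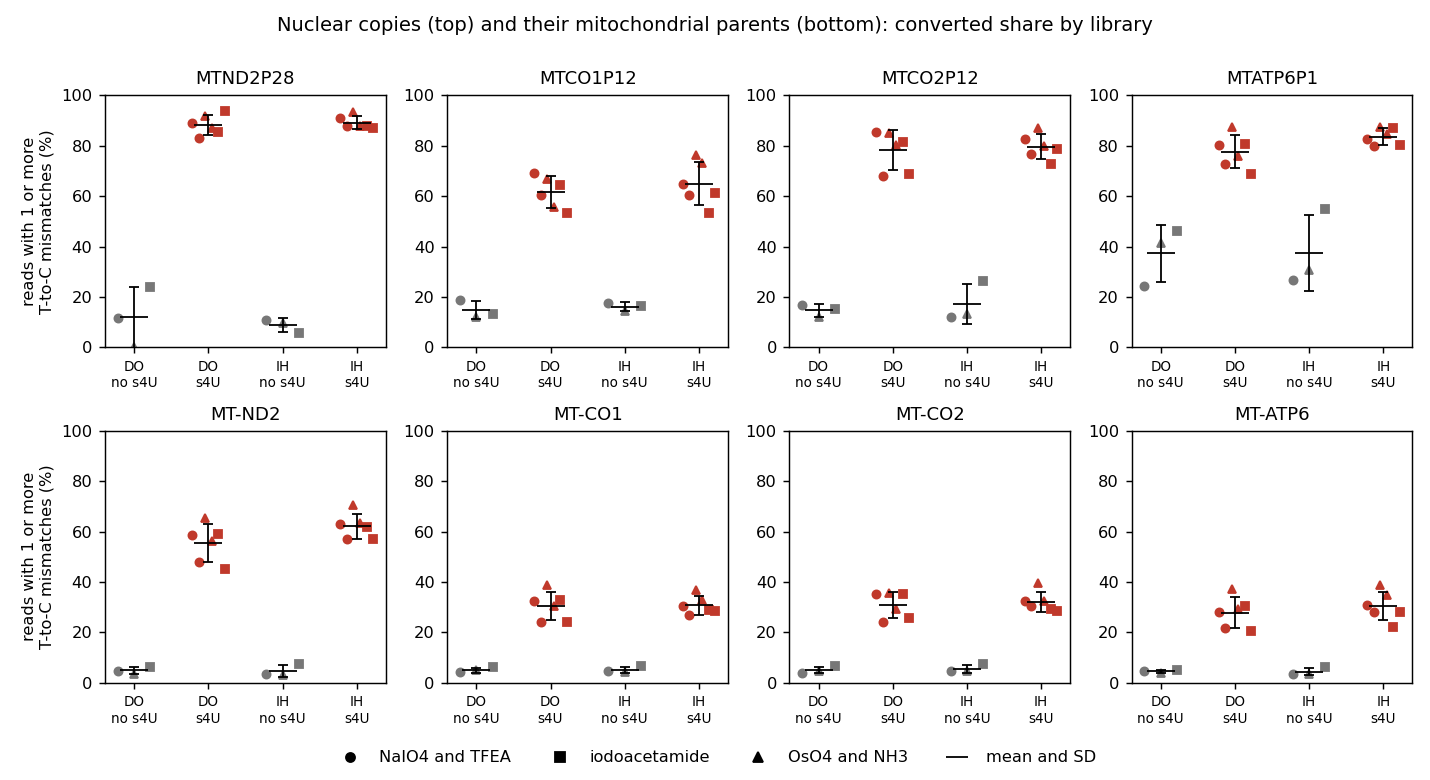
Converted share of exonic HISAT-3N reads (percent) per library, for 4 nuclear copies (top) and their parents (bottom), on axes from 0 to 100; bars give the mean and SD. In labelled libraries MTND2P28 lies between 83.0% and 93.8% and MT-ND2 between 45.1% and 70.5%, and in unlabelled libraries MTATP6P1 lies above MT-ATP6.

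Converted reads differed in the number of mismatches they carried. In unlabelled libraries a converted read of MTND2P28, MTCO1P12, MTCO2P12 or MTATP6P1 held 1 to 1.05 mismatches on average, as in the parents (1.01 to 1.02). In labelled libraries it held 2.28 in MTND2P28, 1.84 in MTCO2P12, 1.71 in MTATP6P1 and 1.67 in MTCO1P12, against 1.94, 1.72, 1.73 and 1.84 in MT-ND2, MT-CO2, MT-ATP6 and MT-CO1. With HISAT-3N, MTND2P28 and MTCO2P12 stood above their parents, and MTATP6P1 and MTCO1P12 below theirs, MTATP6P1 by the least. This order depended on the aligner. With STAR D the labelled value was 1.87 in MTND2P28 against 1.89 in MT-ND2, and 1.84 in MTCO1P12 against 1.77 in MT-CO1. With HISAT2 D the same values were 1.63 against 1.65, and 1.68 against 1.58. MTATP6P1 stayed below MT-ATP6 with STAR D (1.65 against 1.67) and HISAT2 D (1.49 against 1.55).

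The share of a pair's reads that fell on the nuclear copy changed with the number of mismatches in the read. For MTND2P28 and MT-ND2 in labelled libraries, the copy took 2.71% of reads without a mismatch (median of 12 libraries, range 0.79% to 3.20%). It took 7.81% of reads with 1 mismatch (6.18% to 9.43%), 16.2% of reads with 2 (10.5% to 20.9%), 20.6% with 3 (15.0% to 32.2%) and 12.7% with 4 or more (5.17% to 22.7%). The ranges for 0, 1 and 2 mismatches did not overlap. For MTCO2P12 the medians were 2.19%, 12.5%, 22.1%, 19.9% and 11.8% in the same order.

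MTATP6P1 showed one step and then a plateau. It took 7.92% of the pair's reads without a mismatch (5.33% to 9.92%) and 47.0% of those with 1 (44.1% to 57.0%), then 45.8%, 46.2% and 48.3% of those with 2, 3 and 4 or more. MTCO1P12 also stepped from 2.17% (1.79% to 2.75%) to 8.74% (7.10% to 10.1%), and lay at 4.44% among reads with 4 or more. In unlabelled libraries the pooled share of MTATP6P1 moved from 6.52% to 44.1% between 0 and 1 mismatch, and that of MTND2P28 from 0.98% to 2.59%. Over all reads, MTATP6P1 took 8.43% to 9.59% of its pair in unlabelled and 19.9% to 28.2% in labelled libraries.

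**Figure D3:**
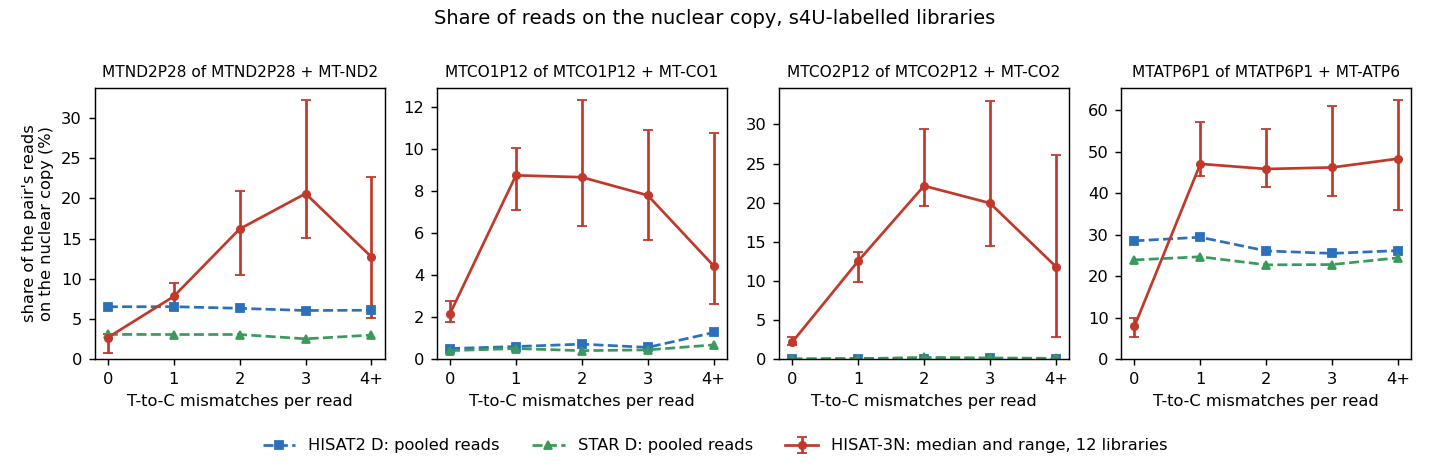
Share of the reads of a nuclear copy and its parent that fell on the copy (y axis, percent, from 0, scaled per panel) by the number of T-to-C mismatches in the read, in s4U-labelled libraries. HISAT-3N points are medians with the range over 12 libraries, and HISAT2 D and STAR D points are pooled reads; MTATP6P1 goes from 7.92% to 47.0% between 0 and 1 mismatch with HISAT-3N and from 23.9% to 24.7% with STAR D.

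The same reads had also been aligned with HISAT2 and STAR, each with settings coded D, ML and VL, which the labels do not define. With STAR D, MTND2P28 took 3.10% of its pair's labelled reads without a mismatch and 3.08%, 3.08%, 2.55% and 3.01% of those with 1, 2, 3 and 4 or more. MTATP6P1 took 23.9% and 24.7% at 0 and 1 mismatch with STAR D, and 28.5% and 29.4% with HISAT2 D. Its converted share was then 18.2% to 33.7% in labelled libraries (STAR D), where MTATP6P1 by HISAT-3N had 68.8% to 87.5%.

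Read numbers moved in opposite directions between alignments. MTCO2P12 had 3709 labelled reads with HISAT-3N and 48 with STAR D or HISAT2 D, a ratio of 77.3, and 27.2 times as many unlabelled reads as with STAR D. HISAT-3N gave it more reads in each of the 18 libraries. MTCO1P12 likewise had 4517 labelled reads with HISAT-3N and 797 with STAR D (ratio 5.67). MTATP6P1 went the other way, with 7936 labelled reads against 14988 (ratio 0.53) and 1488 unlabelled reads against 8762 (ratio 0.17). Its parent MT-ATP6 had a ratio of 0.53 in labelled and 0.54 in unlabelled libraries, so the copy was close to its parent in labelled libraries and below it in unlabelled ones. The labelled ratios of the 6 parents were 0.53 to 0.79. MTND2P28 had 2489 labelled reads against 1133 (ratio 2.20), but 192 unlabelled reads against 579 (ratio 0.33). Across 12008 genes with enough labelled reads, the median ratio of HISAT-3N to STAR D was 0.83, 0.52% of genes had a ratio over 2, and 0.45% had a ratio under 0.5.

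In unlabelled libraries, HISAT2 with settings VL gave higher converted shares than HISAT2 D. With VL, 43.4% of 2072 MTND2P28 reads, 58.0% of 1292 MTCO1P12 reads and 62.6% of 139 MTCO3P12 reads carried a mismatch without any s4U, and each converted MTND2P28 read held 2.49 mismatches. With HISAT2 D the same shares were 4.69%, 3.29% and 3.03%. For MTATP6P1 the unlabelled share was 12.5% with VL and 3.66% with HISAT2 D, both below the 33.9% of HISAT-3N. The converted share of all reads in unlabelled VL libraries was 9.85% to 18.1%. MTND1P23 received 269 labelled and 87 unlabelled reads with VL, against 33 and 10 with HISAT-3N.

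**Figure D4:**
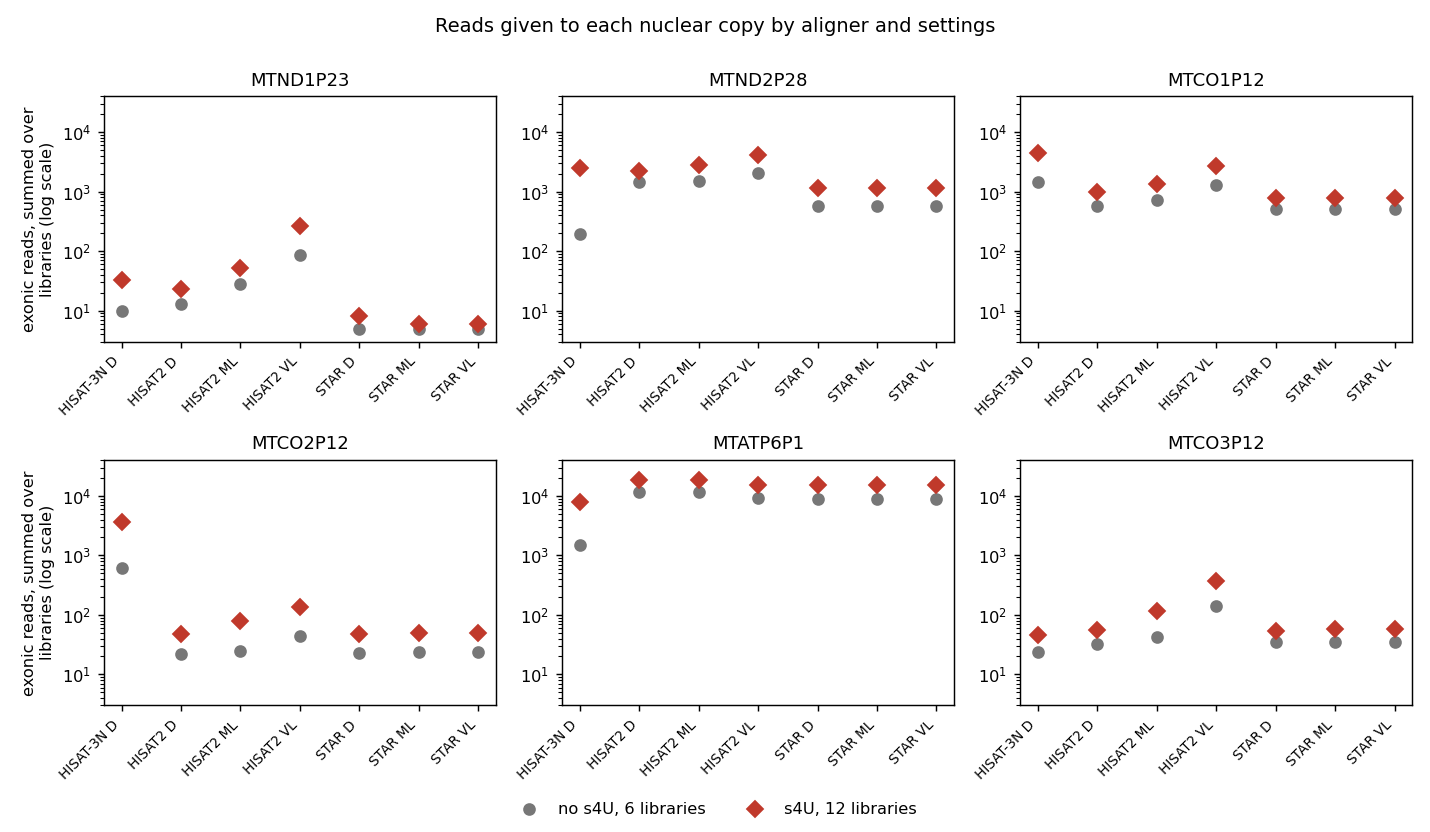
Exonic reads of each nuclear copy (log axis), summed over the 12 labelled (diamonds) and the 6 unlabelled libraries (circles), for 7 combinations of aligner and settings. MTCO2P12 falls from 3709 labelled reads with HISAT-3N to 48 with STAR D, while MTATP6P1 goes from 7936 to 14988.

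Handling was compared because the series set out to limit the loss of labelled RNA, and this contrast played no part in choosing the copies. MTND1P23 did not pass the filter on low counts, and MTCO3P12, which passed it only through a single library, is not tested here. In labelled libraries MTCO1P12 stood at 269 to 404 CPM under DO and 178 to 234 under IH, and MTCO2P12 at 234 to 369 against 106 to 188. MTATP6P1 stood at 459 to 805 against 256 to 380. The ranges of MTND2P28 overlapped (119 to 229 against 68.6 to 151). How many of all genes had ranges that overlap was not counted.

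MTCO2P12 fell by 1.10 on the log2 scale under IH (SE 0.14, edgeR adjusted p = 1.64e-07), and MTATP6P1 fell by 0.95 (SE 0.13, 8.47e-07). MTCO1P12 fell by 0.62 (SE 0.13, 0.000117) and MTND2P28 fell by 0.62 (SE 0.16, 0.00143). Of all genes tested, 80.6% were called in either direction and 33.9% were called lower under IH. The median over all genes was 0.44. The 6 parents were also called lower, with log2 changes of -1.31 to -0.61. Of the 9 other mitochondrially encoded mRNAs and rRNAs, 8 were called lower, and the change nearest to none was -0.02. DO and IH differ in how the RNA was collected. These changes are therefore in recovered reads on a relative scale, and they do not measure expression per cell. The larger share of reads without a gene under DO, given above, moved with this comparison, and its part in the result was not tested.

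The unlabelled libraries showed the handling difference too. Each unlabelled group held 1 library, so the SEs and p-values of this contrast rest on the spread between labelled libraries. Without s4U, MTATP6P1 fell by 1.41 (SE 0.20, edgeR adjusted p = 1.85e-06), MTCO2P12 fell by 1.18 (SE 0.22, 5.26e-05) and MTCO1P12 fell by 1.16 (SE 0.19, 9.77e-06). MTND2P28 had a log2 change of -0.63 (SE 0.34, 0.106), short of the threshold. Here 72.1% of all genes were called and 30.7% were lower. MTND2P28 passed under each of the 6 other alignments (-0.72 to -1.12), with intronic reads (-1.33), without the OsO4 + NH3 unlabelled pair (-1.12) and without either labelled DO library of NaIO4 + TFEA (-0.70). MTCO2P12 no longer passed with HISAT2 VL (adjusted p = 0.165).

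The change with handling was not shown to differ between labelled and unlabelled libraries. The difference of the changes was 0.54 for MTCO1P12 (SE 0.22, edgeR adjusted p = 0.639), 0.46 for MTATP6P1 (SE 0.23, adjusted p = 0.689), 0.08 for MTCO2P12 (SE 0.25) and 0.01 for MTND2P28 (SE 0.28). edgeR called 0 of 12449 genes here (0%), with 914 at an unadjusted p under 0.05, and DESeq2 called 3.

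**Figure D5:**
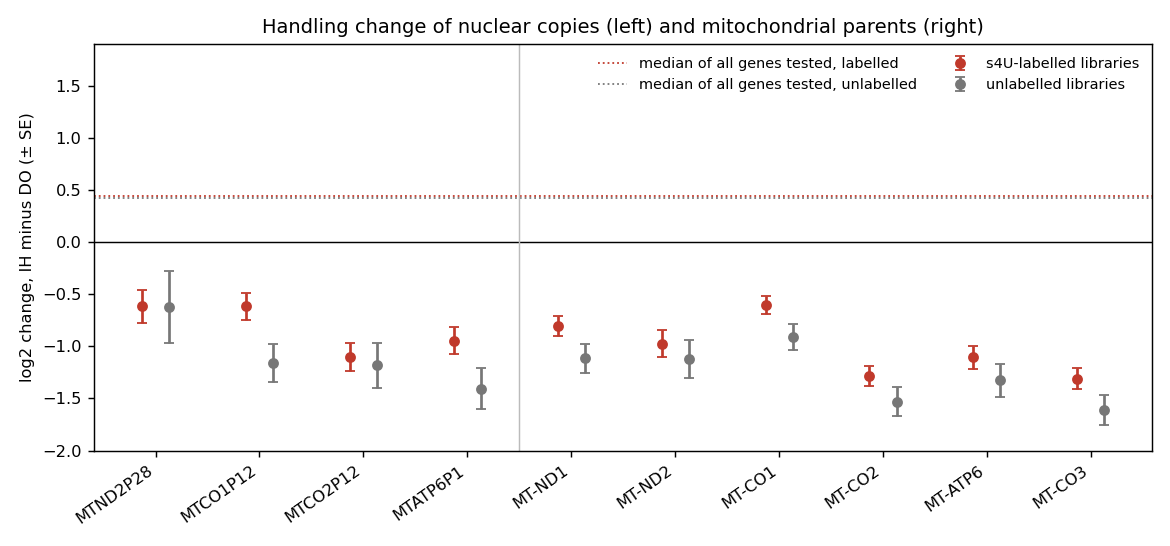
Log2 change of read counts between handlings (IH minus DO, with SE, edgeR) for 4 nuclear copies (left of the line) and the 6 parents (right), in labelled and unlabelled libraries; dotted lines mark the medians of all genes tested, 0.44 and 0.43. MTND2P28, MTCO1P12, MTCO2P12 and MTATP6P1 lie below 0 in both, between -0.62 and -1.41.

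Of the copies, MTATP6P1 alone passed the test of the converted share between handlings, and its call depended on the alignment and on single libraries. MTND2P28 had 88.3% ± 4.00 (SD, n = 6) under DO and 89.1% ± 2.52 under IH, and MTCO2P12 78.3% ± 7.85 and 79.6% ± 4.95. MTCO1P12 had 61.6% ± 6.32 and 64.9% ± 8.49. The ranges overlapped in each. MTATP6P1 went from 77.6% ± 6.61 to 83.7% ± 3.21, a log2 odds ratio of 0.52 (SE 0.21, edgeR adjusted p = 0.0256), and its ranges overlapped as well (68.8% to 87.5% and 80.0% to 87.3%).

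The log2 odds ratios of MTCO1P12, MTCO2P12 and MTND2P28 were 0.23 (SE 0.22), 0.10 (SE 0.26) and 0.03 (SE 0.33), with edgeR adjusted p of 0.342, 0.716 and 0.926. Of all genes tested, 70.7% were called and 70.6% were higher under IH, with a median log2 odds ratio of 1.07. Small changes were also seen in the 6 parents (0.03 to 0.41, 1 called). The 9 other mitochondrially encoded mRNAs and rRNAs had a median of 0.13, with 1 called. The call for MTATP6P1 was lost under each of the 6 other alignments (0.16 to 0.22), when 2 mismatches were required (0.55, adjusted p = 0.146) and without any one of 6 libraries. These were NaIO4 + TFEA DO replicate 2 and IH replicate 1 (0.42 and 0.48), OsO4 + NH3 DO replicate 2 and IH replicate 1 (0.33 and 0.47), and iodoacetamide DO replicate 2 and IH replicate 1 (0.36 and 0.42). Over all reads, DO replicates 1 and 2 had converted shares of 22.8% and 16.8% with NaIO4 + TFEA. The shares were 25.0% and 19.1% with OsO4 + NH3, and 22.0% and 16.7% with iodoacetamide.

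The converted shares of the copies did not differ past the threshold between the 3 chemistries. MTND2P28 had 90.0% ± 3.0 (SD, n = 4) with OsO4 + NH3, 88.5% ± 3.69 with iodoacetamide and 87.7% ± 3.44 with NaIO4 + TFEA. MTCO1P12 had 68.0% ± 9.05, 58.0% ± 5.58 and 63.8% ± 4.22 in the same order, MTCO2P12 83.2% ± 3.49, 75.4% ± 5.79 and 78.2% ± 7.66, and MTATP6P1 83.9% ± 5.35, 79.3% ± 7.64 and 78.8% ± 4.30. The mean was highest with OsO4 + NH3 in each of these 4, and the ranges of the chemistries overlapped. edgeR's joint test over the chemistries gave adjusted p of 0.695 to 0.930 for these 4 and called 0 of 4084 genes (0%), with 299 at an unadjusted p under 0.05. The log2 odds ratio of OsO4 + NH3 over iodoacetamide was 0.66 (SE 0.27) for MTCO1P12, 0.69 (SE 0.32) for MTCO2P12, 0.46 (SE 0.26) for MTATP6P1 and 0.16 (SE 0.40) for MTND2P28.

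MTCO1P12 was the only one of the 6 copies with a degradation rate constant in the authors' deposited table. For NaIO4 + TFEA (named TimeLapse there), the authors' deposited table gave MTCO1P12 a constant of 0.168 under DO and 0.0932 under IH, a log2 fold change of -0.83 (the authors' adjusted p = 0.0788). For OsO4 + NH3 (TUC), the authors' deposited table gave 0.126 and 0.0690, also -0.83 (0.183). For iodoacetamide (SLAM), it was 0.167 and 0.04 in the authors' deposited table, a change of -2.06 (0.000242). The parent MT-CO1 had changes of 0.02 to 0.03 in the authors' deposited table, and the median transcript had 1.14 to 1.19. A change below 0 was listed for 7.06% to 8.56% of transcripts in the authors' deposited table. The table gives no time unit. Which alignment the constants rest on was not established here. The pooled labelled share of MTCO1P12 was 64.0% with HISAT-3N and 27.4% with STAR D. Its mean HISAT-3N share over the 3 chemistries together, given above, was not lower under IH. With NaIO4 + TFEA and with iodoacetamide taken alone, the mean share was slightly lower under IH. With OsO4 + NH3 it was higher. How these shares relate to the constants was not tested.

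Among 3432 other genes with a mean of at least 100 reads, the highest Pearson r of log2 CPM with MTND2P28 across the 18 libraries were 0.93 (ENSG00000108953) and 0.86 (ENSG00000109971), which the files do not pair with symbols. These correlations describe libraries that share depth and chemistry and that fall into labelled and unlabelled sets. MTND2P28 was chosen for its difference between those sets, so r over all of them is not independent of that choice, and r among the copies is not given.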

How the data were processed

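Per the labels' protocols, RNA was isolated with Trizol, cleared of DNA, recoded chemically and sequenced as strand-specific libraries of total RNA. The authors deposited a table of counts: reads per library, aligner, settings code, contig, gene, intronic mark, T positions and T-to-C mismatches in the read. cutadapt, HISAT2, STAR, HISAT, Picard, HTSeq and DESeq2 and the build GRCh38 are named in the submitters' processing notes, without versions. The meaning of the settings codes is not given in the sources used here. The authors also deposited rate constants (taken here as scores without a time unit), with a log2 fold change (IH over DO) and an adjusted p-value for each transcript.

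The members and the gene lists were chosen with earlier results of these data known. Exonic HISAT-3N counts were summed per gene and library, without regard to a settings code. In all, 0 columns were left unmapped. edgeR 4.0.16 (R 4.3.3) was run with filterByExpr (12449 of 24678 genes passed), TMM, and 1 mean for each of 12 groups, so that the single unlabelled libraries shared the estimate of the spread. Contrasts were averaged over the chemistries, and p-values were two-sided and adjusted by Benjamini-Hochberg over all genes tested, with a threshold of 0.05. The converted share was tested on converted against unconverted reads with 1 term for each library, in the 4084 genes that had 20 or more exonic reads in all labelled libraries. CPM used TMM-scaled library sizes. The scripts were tested on simulated data.

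The genes named are the 6 copies, their parents, the other mitochondrially encoded genes as a group, and the genes with the highest correlation with MTND2P28, of which 2 of 3 are given. The count table holds Ensembl identifiers without symbols. Symbols of the copies came with their selection, in the order given there, and those of the mitochondrial genes from general knowledge of Ensembl's naming, compared by rank between the authors' deposited rate constants, listed by symbol, and the converted shares, listed by identifier, in the TimeLapse libraries with improved handling (Spearman rho 0.93 across 13 mitochondrial genes, which are not independent replicates). That comparison does not bear on the symbols of the copies. Each parent lay on the mitochondrial contig and each copy on chromosome 1 in the table. The RefSeq list holds 474 symbols of such nuclear copies but 0 Ensembl identifiers, so the others were not analysed here. Labelled replicates differed beyond counting noise (chi-square per degree of freedom 2.09 to 7.74), so none was taken for a duplicate. No sequences are printed. Alternatives were other alignments, DESeq2 1.42.0, other filters, intronic reads, 2 or more mismatches, a replicate block and leaving out each library.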

Additional observations from a re-analysis of the deposited data

Results flagged for a closer look

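Reads that the authors' table marks as intronic were left out of the report's values. In the copies other than MTCO3P12 their converted share was also higher in labelled than in unlabelled libraries. The median gene showed a rise too: its exonic share was 12.1% (DO) and 25.1% (IH) with s4U, against 2.21% and 2.75% without. Intronic shares were not computed over all genes, so nothing particular to the copies is read from this direction. MTND1P23 had more reads marked intronic (150) than exonic (43), and 99.3% of its 146 labelled intronic reads were converted, against 0 of 4 unlabelled ones, which allows up to 75.0%. The converted share of labelled reads marked intronic was 92.5% for MTND2P28 (120 reads), 75.0% for MTCO2P12 (72 reads), 68.9% for MTCO1P12 (589 reads) and 58.9% for MTATP6P1 (56 reads). In unlabelled libraries it was 0% of 15 reads (which allows up to 20%), 6.67% of 15, 20.1% of 179 and 9.09% of 77 in the same order. MTCO3P12 had too few such reads to compare, with 0 of 2 labelled and 1 of 4 unlabelled ones converted. The contrast between labelled and unlabelled libraries chose these genes, so the difference is given without a test.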

How the results depend on the processing

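MTCO1P12, MTCO2P12, MTND2P28 and MTATP6P1 kept a lower level under IH in labelled libraries, past the threshold, in each alternative in which they passed the filter. Within a chemistry, the replicate numbers did not pair the samples (correlations of deviations between -3.97e-05 and 0.00576). Whether they pair samples across chemistries was not tested. Among labelled DO libraries, replicate 2 had the lower converted share of all reads in each chemistry. Labelled libraries of different chemistries may therefore not be independent. With a replicate block, 3 genes were called in the test of handling change between labelled and unlabelled libraries, against 0. That count was 1 with HISAT2 D, 3 with DESeq2, 10 without a filter on low counts and 0 to 17 when single libraries were left out (17 without iodoacetamide DO replicate 1, 5 without replicate 2), and none of these calls was a nuclear copy. The test of chemistries called 4 genes with HISAT2 VL, 2 with a minimum of 5 reads and 0 to 2 with single libraries left out. The converted share changed with handling in 1631 genes with a minimum of 50 reads and in 4559 with intronic reads added, against 2886. The fitted value of MTCO3P12, which is not used as a test because it passed the filter through 1 library, turned from 0.18 to -0.74 (HISAT2 VL) in labelled libraries, and in unlabelled ones from 0.35 to -2.56, -2.03 and -1.78 (HISAT2 D, ML, VL) and -2.38 with each STAR setting. With 0 to 11 exonic HISAT-3N reads per library, its level and that of MTND1P23 carry large counting error. Their read numbers also changed with the alignment. Each unlabelled group held 1 library. For the changed counts of calls the cause was not tested.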
